A study of Rattus norvegicus with 6 samples.

Results

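The extracellular matrix and fibrosis genes are a list of 33 genes for collagens, lysyl oxidases, the TGF-beta ligands, matricellular glycoproteins, proteoglycans, elastic fibre proteins and the PDGF receptors, chosen by name. Probes were assigned to them by the RefSeq accession on the array. Of the 33 genes, 27 matched 51 probes, and 25 genes could be tested, out of 29938 genes tested in all. Col5a2, Col4a2, Col6a1, Col6a3, Col12a1 and Lox matched no probe by this rule, and Postn and Lum were not well above background on any array. The RNA came from the renal cortex of 6 male Sprague-Dawley rats bought at 5 weeks of age, 1 array per animal. In 3 animals phenylbutazone, a cyclooxygenase-blocking anti-inflammatory drug, was given at 200 mg/kg/day for 4 weeks, and 3 vehicle animals received corn oil over the same 4 weeks. The labels name no genetic modification in either group.

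In the kidney, fibrillar collagens give the interstitium between the tubules its tensile strength, whereas type IV collagen networks form the basement membranes of tubules, glomeruli and vessels. Fibroblasts and pericytes, which carry the PDGF receptors, are the main source of interstitial matrix. TGF-beta is held latent in the matrix, and once released it signals through Smad transcription factors that raise the transcription of collagens, fibronectin and Ccn2, while lysyl oxidases crosslink the deposited collagen and elastin. Accumulation of this matrix is renal fibrosis.

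Levels are given as log2 of the processed intensity relative to the 75th percentile of the same array, so that 0 stands for that percentile, and levels of different probes are not comparable. Differences are phenylbutazone minus vehicle in log2 units with the limma standard error and n = 3 per group. On the first principal component over all genes tested (29.4% of variance), vehicle array 3 stood at 52.3. Vehicle arrays 1 and 2 stood at the other end, at -41.2 and -36.3, with the 3 phenylbutazone arrays between, at 1.1 to 18.9. The second component (25.7%) had the 3 phenylbutazone arrays at -39.8 to -12.1 and the 3 vehicle arrays at 20 to 40.5. The 3 phenylbutazone arrays and vehicle array 3 shared slide 2, and vehicle arrays 1 and 2 were on slide 1, scanned on another day. A difference on slide 2 alone, the same as that from a fit blocked by slide, therefore rests on vehicle array 3 as the only vehicle array. Vehicle array 3 was the highest or the lowest of the 6 arrays in 16 of the 25 tested matrix genes, and in 57.6% of all genes tested. The cortex markers Slc34a1 and Lrp2 of the proximal tubule and Nphs1 of the podocyte were well above background on 6 of 6 arrays, as were Umod and Aqp2 of deeper segments. In whole tissue, fewer cells of a type and less RNA per cell cannot be told apart.

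No matrix gene passed the test. With limma and Benjamini-Hochberg adjustment over all genes, 0 of the 25 had an adjusted p under 0.05, against 0% of all genes tested, and the lowest adjusted p among them was 0.422. At an unadjusted limma p under 0.05 there were also 0 of the 25, against 12.2% of all genes tested. That unadjusted limma count depended on the setting. It was 2 with an intensity trend, with scaling to the array median, with slide as a random block and with the replicate number as a block. It was 1 with normexp background correction and 0 with quantile normalization. Leaving out 1 array gave 0 to 2, and fitting every probe on its own gave 4 genes. In each of these settings again 0 passed. The 3 phenylbutazone values lay fully apart from the 3 vehicle values in 2 of the 25, Col4a1 and Fbn1, both higher, against 21.5% of all genes tested in either direction. Of the 25 differences 15 were above and 10 below 0, with a median of 0.030, beside a median of 0.015 over all genes. Their median size was 0.11 log2 units, beside 0.16 over all genes. A difference of at least 2-fold was seen in 0 of the 25 matrix genes and in 1.76% of all genes tested. The precision of 3 arrays per group still left room for change: the 95% limma interval stayed within 2-fold either way for 22 of the 25 genes and reached 2-fold for Tgfb2, Vcan and Ccn2.

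**Figure D1:**
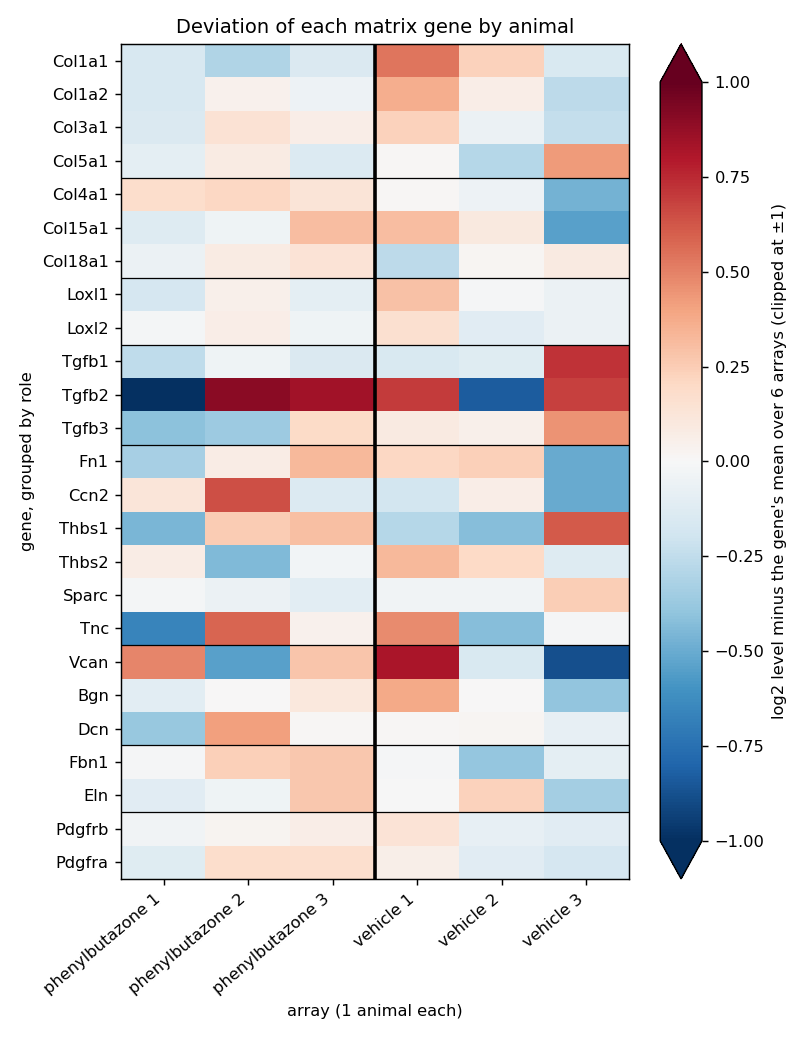
Log2 level of each of the 25 tested matrix genes (rows, grouped by role with lines between roles) on each array (columns, 1 animal each, phenylbutazone left of vehicle), minus the gene's mean over the 6 arrays; red is above and blue below that mean, clipped at ±1. Most rows show no block of one colour on either side of the black line, and vehicle 3 is the lowest array in 11 rows and the highest in 5.

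Type I collagen, the main fibrillar collagen of the interstitium, is built from the products of Col1a1 and Col1a2. Col1a1, on its probe of highest level, had 0.81, 0.67 and 0.83 in phenylbutazone animals 1, 2 and 3, against 1.51, 1.20 and 0.82 in vehicle animals 1, 2 and 3. Vehicle animal 3 lay among the phenylbutazone animals, so the groups overlapped. The difference was -0.41 ± 0.18 (adjusted p = 0.444), with a 95% interval of -0.86 to 0.042. It was -0.052 on slide 2 alone and -0.59 without vehicle animal 3 (adjusted p = 0.0941). The other Col1a1 probes gave the same sign with a wider separation. On probe A_64_P040278 the values were 0.29, 0.19 and 0.31 in phenylbutazone and 1.22, 0.76 and 0.86 in vehicle, and on probe A_44_P350521 they were -0.16, -0.12 and -0.23 in phenylbutazone and 0.23, 0.12 and 0.47 in vehicle. On both, every phenylbutazone animal lay below every vehicle animal. Their differences in the fit of all 41006 probes were -0.69 ± 0.14 (unadjusted p = 0.00274, limma adjusted p = 0.261) and -0.45 ± 0.12 (unadjusted p = 0.0099, limma adjusted p = 0.332), so neither passed. Against vehicle animal 3 alone they stood at -0.60 and -0.64.

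Col1a2, which encodes the other chain of type I collagen, had 3.74, 3.95 and 3.85 in phenylbutazone, against 4.27, 3.97 and 3.64 in vehicle. The vehicle values spanned the phenylbutazone values on both sides. Its difference was -0.11 ± 0.18 (limma adjusted p = 0.821), and it stood at 0.21 on slide 2 alone and -0.27 without vehicle animal 3. A further Col1a2 probe stood at -0.18 ± 0.16. Col3a1, the type III chain that forms mixed fibrils with type I, had 1.67, 1.96 and 1.88 in phenylbutazone and 2.04, 1.75 and 1.57 in vehicle (0.049 ± 0.15). Its groups overlapped. Col5a1, a chain of the type V collagen that starts fibril assembly, had -0.49, -0.31 and -0.53 in phenylbutazone and -0.38, -0.68 and 0.031 in vehicle (-0.10 ± 0.19), and its 3 probes stood between -0.16 and -0.10. Vehicle animal 3 was the highest there, and without it the difference was 0.085. Over the 4 tested fibrillar genes the median was -0.11, with 1 above and 3 below 0, while on slide 2 alone it was 0.079 with 2 on each side.

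The promoter of Col1a2 is printed, from the RefSeq promoter table of build GRCr8, as an example of a fibrillar collagen start. It lies at chr4:33518307-33518606 on the plus strand and runs 250 bases before to 50 bases after the annotated start. Capitals mark the Smad box CAGAC, the TEAD motif GGAATG, the TATA box TATAAA and the CCAAT box on either strand.
Col1a2: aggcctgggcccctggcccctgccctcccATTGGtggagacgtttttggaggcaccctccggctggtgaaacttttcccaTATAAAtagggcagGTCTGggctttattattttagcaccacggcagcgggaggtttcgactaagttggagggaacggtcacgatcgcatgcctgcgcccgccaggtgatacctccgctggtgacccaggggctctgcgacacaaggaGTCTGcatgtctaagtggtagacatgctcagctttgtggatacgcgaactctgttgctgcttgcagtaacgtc
It held 1 TATA box, 1 CCAAT box and 2 Smad boxes. A match of letters is a description, not a bound site.

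Among the basement membrane collagens Col4a1, the alpha1 chain of the type IV collagen present in all basement membranes, had 4.56, 4.59 and 4.51 in phenylbutazone, against 4.39, 4.33 and 3.91 in vehicle, on its probe of highest level. The groups did not overlap. The difference was 0.34 ± 0.15 (limma adjusted p = 0.427), it was 0.64 on slide 2 alone and was 0.19 without vehicle animal 3. With slide as a fixed block the limma adjusted p was 0.0594, so the gene did not pass there either. Probe A_44_P1070510, assigned to the same gene, ran the other way, at 2.96, 2.87 and 2.77 in phenylbutazone against 3.40, 3.38 and 3.51 in vehicle, again without overlap. Its difference was -0.56 ± 0.10 (unadjusted p = 0.00132, limma adjusted p = 0.223 over all probes), and -0.64 against vehicle animal 3 alone. The 2 remaining Col4a1 probes stood at 0.065 ± 0.094 and -0.048 ± 0.24. The array therefore gave no direction for Col4a1 that all its probes shared.

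Col15a1, a collagen of the zone between basement membrane and interstitium, had 0.30, 0.39 and 0.74 in phenylbutazone and 0.74, 0.53 and -0.11 in vehicle (0.093 ± 0.25). On this probe of highest level vehicle animal 3 was far below the other animals, and the difference was 0.59 on slide 2 alone and -0.15 without that animal. The second Col15a1 probe had -0.82, -0.99 and -0.69 in phenylbutazone and -0.90, -1.14 and -1.12 in vehicle (0.22 ± 0.13). There the difference was 0.29 on slide 2 alone and 0.18 without vehicle animal 3. Col18a1, the source of endostatin, had 2.69, 2.83 and 2.89 in phenylbutazone and 2.49, 2.77 and 2.84 in vehicle (0.10 ± 0.13). Its 2 probes stood at 0.10 and 0.18. On their probes of highest level all 3 tested basement membrane collagens stood above 0, although the Col4a1 probes differed in sign. On slide 2 alone Col18a1 stood at -0.039. The median of the 3 genes was 0.10, and it was 0.59 on slide 2 alone and 0.17 without vehicle animal 3. The fibrillar and the basement membrane collagens thus had medians on opposite sides of 0. The difference between the roles was not tested, and on slide 2 alone both medians were above 0.

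In the rat genome Col4a1 and Col4a2 start next to each other on opposite strands. The annotated starts were 77 bases apart and the 2 promoter windows shared 176 bases. The window of Col4a1 therefore also covers the start of Col4a2, the partner chain, which matched no probe by accession. The window lies at chr16:84885347-84885646 (GRCr8, plus strand), with capitals as above.
Col4a1: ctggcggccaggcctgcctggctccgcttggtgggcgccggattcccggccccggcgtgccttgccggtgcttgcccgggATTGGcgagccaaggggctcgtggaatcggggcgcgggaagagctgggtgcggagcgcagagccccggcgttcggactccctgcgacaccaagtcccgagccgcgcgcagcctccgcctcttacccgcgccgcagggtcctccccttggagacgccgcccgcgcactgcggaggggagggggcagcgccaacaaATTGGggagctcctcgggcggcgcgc
With 75% G and C it held 2 CCAAT boxes and 0 TATA boxes, 0 Smad boxes and 0 TEAD motifs, whereas the Col1a2 window had 57% G and C.

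**Figure D2:**
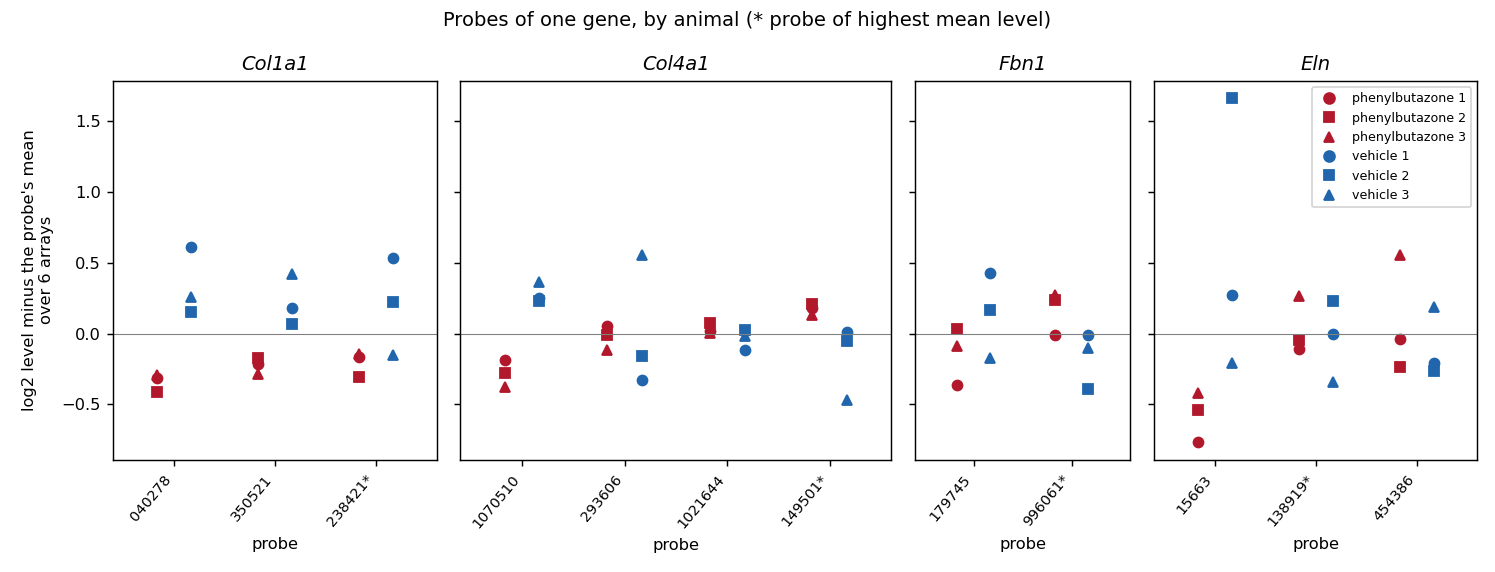
Log2 level of each probe (x axis, number from the array design, * marks the probe of highest mean level) on each array, minus that probe's mean over the 6 arrays (y axis), for Col1a1, Col4a1, Fbn1 and Eln, with phenylbutazone in red and vehicle in blue and a symbol per animal. The phenylbutazone points lie below the vehicle points on 2 of the 3 Col1a1 probes, while the 4 Col4a1 probes differ in direction.

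The lysyl oxidases crosslink collagen and elastin outside the cell. Loxl1, which acts mainly on elastin, had 2.46, 2.68 and 2.53 in phenylbutazone and 2.92, 2.62 and 2.57 in vehicle (-0.15 ± 0.13, limma adjusted p = 0.673). The groups overlapped. Its second probe had -0.13, 0.079 and 0.023 in phenylbutazone and 0.51, 0.17 and 0.23 in vehicle, without overlap, at -0.32 ± 0.13 (limma adjusted p = 0.442 over all probes). Loxl2, which acts on basement membrane type IV collagen, had -0.034, 0.048 and -0.059 in phenylbutazone and 0.14, -0.13 and -0.074 in vehicle. Its difference of 0.0090 ± 0.11 had a 95% interval of -0.26 to 0.28. The median of the 2 tested enzymes was -0.070, and it was 0.020 on slide 2 alone and -0.12 without vehicle animal 3.

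All 3 TGF-beta ligands stood below 0, and none passed. Tgfb1, the main profibrotic isoform, had -2.27, -2.06 and -2.16 in phenylbutazone and -2.17, -2.14 and -1.29 in vehicle. Vehicle animal 3 alone was high, and the other 5 animals lay close together. The difference was -0.30 ± 0.25 (limma adjusted p = 0.660), -0.87 on slide 2 alone and -0.0093 without vehicle animal 3. With slide as a fixed block the limma adjusted p was 0.0594. Tgfb3 had -3.48, -3.43 and -2.88 in phenylbutazone and -2.98, -3.02 and -2.62 in vehicle. The groups overlapped through phenylbutazone animal 3. Its difference was -0.39 ± 0.20 (limma adjusted p = 0.484), -0.64 on slide 2 alone and -0.27 without vehicle animal 3.

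Tgfb2 varied most of all tested matrix genes between animals of the same group. It had -4.99, -1.79 and -1.85 in phenylbutazone and -1.99, -3.52 and -2.01 in vehicle, a span of 9.18-fold over the 6 arrays. Phenylbutazone animal 1 and vehicle animal 2 were low, and the other 4 animals were close together. On the second Tgfb2 probe the same 2 animals were low, with -5.22, -1.82 and -1.87 in phenylbutazone and -2.31, -4.07 and -2.11 in vehicle, whereas a dimmer probe varied less, between -5.04 and -4.07. The difference of -0.37 ± 0.94 turned to 0.69 without phenylbutazone animal 1, and its 95% interval ran from -2.66 to 1.93, so these arrays set hardly any limit on a change in Tgfb2. The median of the 3 ligands was -0.37 on all arrays, -0.86 on slide 2 alone and -0.12 without vehicle animal 3.

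**Figure D3:**
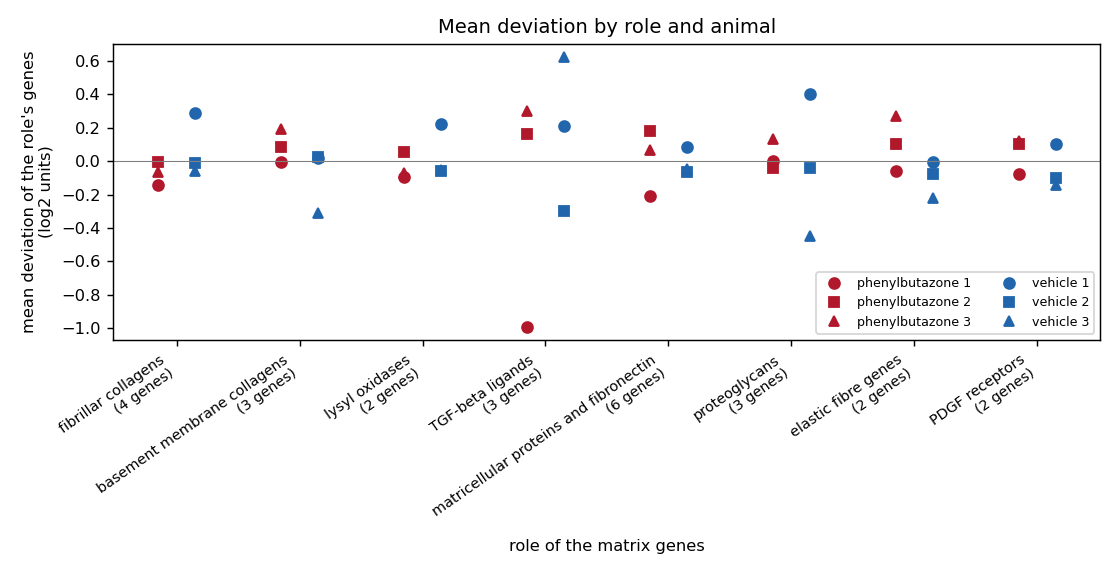
Mean deviation of the tested genes of each role from their own means over the 6 arrays, in log2 units (y axis), for each animal (phenylbutazone red and left, vehicle blue and right, a symbol per animal), by role (x axis, with the number of genes). The TGF-beta ligands span -0.99 in phenylbutazone 1 to 0.62 in vehicle 3, and the basement membrane collagens and proteoglycans are lowest in vehicle 3 at -0.31 and -0.45.

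Ccn2, also called Ctgf, encodes a matricellular protein that TGF-beta and YAP with TEAD factors induce. It had the largest positive difference of the tested matrix genes, with 2.33, 2.85 and 2.07 in phenylbutazone and 2.02, 2.27 and 1.70 in vehicle. Vehicle animal 2 lay above phenylbutazone animal 3, so the groups overlapped. The difference was 0.42 ± 0.24 (limma adjusted p = 0.523), 0.72 on slide 2 alone and 0.27 without vehicle animal 3, with a 95% interval of -0.17 to 1.01. Its promoter is shown because it carries the motifs of both inputs, at chr1:22624565-22624864 (GRCr8, minus strand), with capitals as above.
Ccn2: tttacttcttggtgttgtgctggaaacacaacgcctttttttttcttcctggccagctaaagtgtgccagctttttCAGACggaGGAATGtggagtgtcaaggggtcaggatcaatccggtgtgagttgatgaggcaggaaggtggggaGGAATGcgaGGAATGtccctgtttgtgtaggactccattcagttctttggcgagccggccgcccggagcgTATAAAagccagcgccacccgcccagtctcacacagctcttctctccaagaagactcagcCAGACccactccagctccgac
The window held 3 TEAD motifs, 2 Smad boxes and 1 TATA box. Among all promoters that RefSeq table lists, 14.2% held the TEAD motif, 50.1% a Smad box, 14.2% the TATA box and 37.5% a CCAAT box. Among the 23 windows of the 22 matrix genes in the table, 4, 12, 4 and 7 held them, which is 17.4%, 52.2%, 17.4% and 30.4%.

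Fibronectin, encoded by Fn1, is laid down early in scars and carries collagen and latent TGF-beta. Fn1 had 1.04, 1.45 and 1.70 in phenylbutazone and 1.58, 1.61 and 0.87 in vehicle, with overlap, at 0.045 ± 0.26 (limma adjusted p = 0.958). It was 0.53 on slide 2 alone and -0.20 without vehicle animal 3, and its 3 probes stood between -0.11 and 0.089. Thbs1, whose product activates latent TGF-beta, had -4.74, -4.03 and -3.98 in phenylbutazone and -4.57, -4.71 and -3.67 in vehicle (0.066 ± 0.34). Without vehicle animal 3, the highest, it stood at 0.39, and on slide 2 alone at -0.58. Thbs2, a regulator of fibril assembly, had -2.61, -3.12 and -2.71 in phenylbutazone and -2.36, -2.48 and -2.81 in vehicle (-0.26 ± 0.19). A second Thbs2 probe stood at -0.48 ± 0.21 (limma adjusted p = 0.458 over all probes).

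Sparc, a collagen-binding glycoprotein, was among the tightest genes. It had 5.74, 5.70 and 5.66 in phenylbutazone and 5.73, 5.73 and 6.01 in vehicle, at -0.13 ± 0.12 (limma adjusted p = 0.688). The 5 animals other than vehicle animal 3 hardly differed, and the difference was -0.32 on slide 2 alone and -0.030 without that animal. Tnc, a glycoprotein of injured and remodelling tissue, had -5.43, -4.19 and -4.73 in phenylbutazone and -4.30, -5.20 and -4.78 in vehicle (-0.021 ± 0.37). Postn, a matricellular gene raised in experimental renal fibrosis, was well above background on 0 of 3 phenylbutazone and 0 of 3 vehicle arrays. Only its dim signal of -7.86 to -7.64 in phenylbutazone and -8.08 to -7.51 in vehicle can be given.

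Of the proteoglycans, biglycan and decorin bind fibrillar collagen and TGF-beta, and versican holds a loose matrix with hyaluronan. Bgn had 5.22, 5.33 and 5.43 in phenylbutazone and 5.70, 5.33 and 4.93 in vehicle (0.0059 ± 0.20). The vehicle values spanned the phenylbutazone values on both sides, and the difference was 0.39 on slide 2 alone and -0.19 without vehicle animal 3. A second Bgn probe stood at 0.32 ± 0.20. Dcn had 2.41, 3.20 and 2.80 in phenylbutazone and 2.80, 2.81 and 2.71 in vehicle (0.030 ± 0.20), with the wider spread among phenylbutazone animals (SD 0.40, against 0.057 in vehicle). Vcan had -3.62, -4.65 and -3.83 in phenylbutazone and -3.29, -4.26 and -4.98 in vehicle (0.14 ± 0.48), a span of 3.24-fold over the arrays. Vehicle animal 3 was the lowest, and the difference was 0.95 on slide 2 alone and -0.26 without that animal. The 2 other Vcan probes stood at -0.079 ± 0.16 and 0.15 ± 0.22. The median of the 3 tested proteoglycans was 0.030 on all arrays, 0.39 on slide 2 alone and -0.19 without vehicle animal 3. Lum, like Postn, was not well above background on any array, with -7.80, -7.21 and -6.86 in phenylbutazone and -7.64, -7.85 and -8.24 in vehicle.

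Fibrillin-1 and elastin form the elastic fibres of vessel walls. Fbn1 had 1.24, 1.49 and 1.52 in phenylbutazone and 1.24, 0.86 and 1.15 in vehicle on its brighter probe. The lowest phenylbutazone animal and the highest vehicle animal were equal to 2 decimals, with phenylbutazone marginally above. The difference was 0.34 ± 0.14 (limma adjusted p = 0.422), 0.27 on slide 2 alone and 0.37 without vehicle animal 3, but its second probe stood at -0.28 ± 0.19. Eln had -0.86, -0.79 and -0.48 in phenylbutazone and -0.75, -0.52 and -1.09 in vehicle (0.073 ± 0.18). A dimmer Eln probe had -4.44, -4.21 and -4.09 in phenylbutazone and -3.40, -2.01 and -3.88 in vehicle, without overlap, at -1.15 ± 0.46 (unadjusted p = 0.0461, limma adjusted p = 0.437 over all probes), and the remaining Eln probe stood at 0.19 ± 0.24. Vehicle animal 2 alone stood far up on the dimmer probe.

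Pdgfra and Pdgfrb encode the PDGF receptors of fibroblasts and pericytes. Pdgfra had 2.19, 2.49 and 2.48 in phenylbutazone and 2.37, 2.20 and 2.14 in vehicle (0.15 ± 0.13, limma adjusted p = 0.667). Pdgfrb had 0.41, 0.47 and 0.51 in phenylbutazone and 0.58, 0.36 and 0.33 in vehicle (0.037 ± 0.11, limma adjusted p = 0.911). Both overlapped. The 95% interval was -0.16 to 0.46 for Pdgfra and -0.23 to 0.30 for Pdgfrb, among the narrowest of the tested matrix genes.

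**Figure D4:**
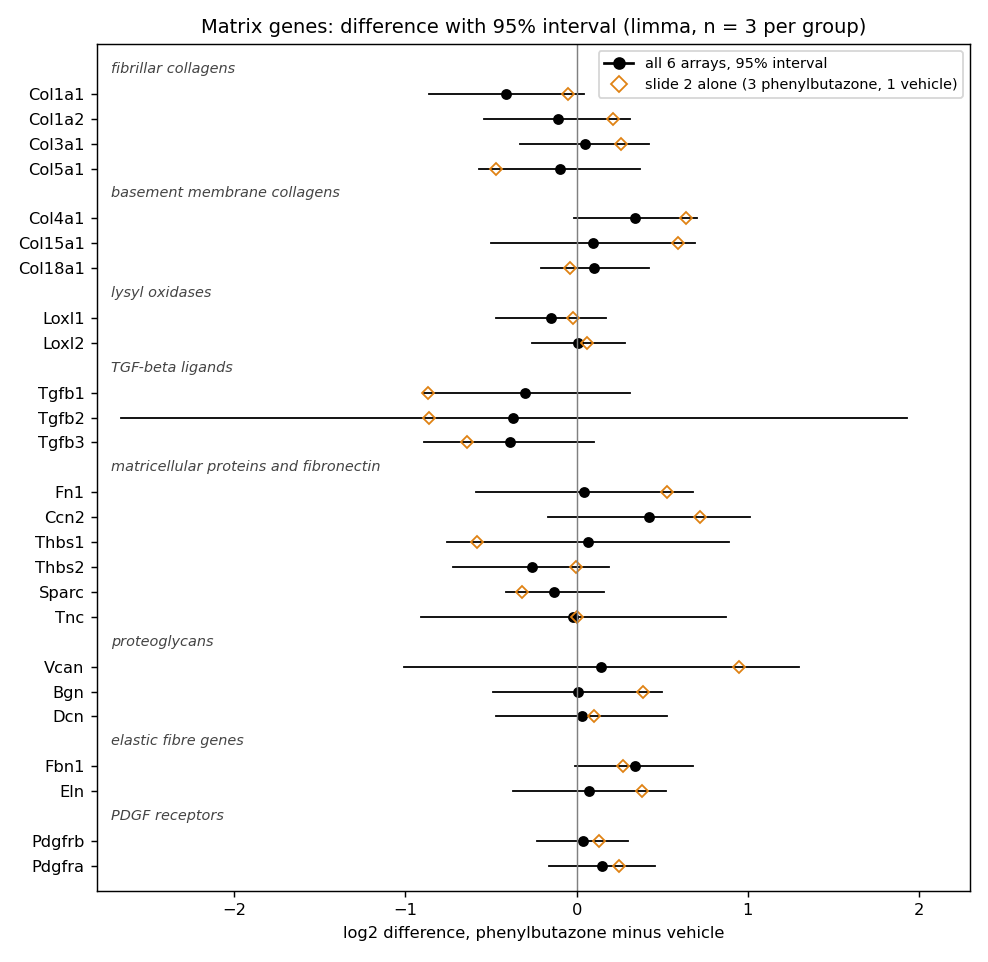
Log2 difference of phenylbutazone minus vehicle (x axis) for the 25 tested matrix genes by role (y axis), with the 95% limma interval over all 6 arrays (black, n = 3 per group) and the difference on slide 2 alone, 3 phenylbutazone arrays against 1 vehicle array (open diamond). Every interval includes 0, and Tgfb2 has the widest at -2.66 to 1.93.

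Read probe by probe, 48 of the 51 probes were above the filter, and 0 passed (limma, lowest adjusted p = 0.223). At an unadjusted limma p under 0.05, 5 of the 48 were lower in phenylbutazone, against 5.81% of all probes, and 0 were higher, against 5.43%. The 5 were 2 probes of Col1a1 and 1 each of Col4a1, Loxl1 and Eln. The same 5 had groups that did not overlap with phenylbutazone lower, against 9.08% of all probes, and 2 had phenylbutazone higher without overlap, against 11.2%. Probes of the same gene share their target and are not independent counts. Among the 15 matrix genes with several probes, 6 had probes of both signs (40%), beside 40.8% of all named genes with several probes.

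With slide as a fixed block, 5 of the 25 genes had an unadjusted limma p under 0.05, namely Tgfb1 (-0.87), Col5a1 (-0.47) and Sparc (-0.32) below 0 and Col4a1 (0.64) and Col15a1 (0.59) above, against 31.6% of all genes tested in that setting. None passed after adjustment. Without vehicle animal 3, where the effect of slide and that of treatment cannot be told apart, 0 of the 25 had an adjusted p under 0.05, against 2.72% of all genes tested.

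The rest of the pathway was described from lists of related genes, none of whose members passed (limma). Among 9 tested genes of other fibrillar and network collagens 4 stood above and 5 below 0 (median -0.0019), and at an unadjusted p under 0.05 there were 0 higher and 2 lower, against 12.2% of all genes tested in either direction. The 2 were Col9a2 (-0.59 ± 0.18), a chain of a fibril-associated collagen kept in this list, and Col5a3 (-0.31 ± 0.10). Col6a2, a chain of the beaded filament collagen VI, stood at 0.28 ± 0.14 and Col11a1, a minor fibrillar chain, at -0.51 ± 0.41. Among 8 other basement membrane genes, 4 above and 4 below 0 (median -0.0066), that count was 1 higher and 0 lower, again against 12.2% of all genes tested in either direction. The gene was Col4a4, a chain of the mature glomerular basement membrane, at 0.35 ± 0.12 (limma adjusted p = 0.359). Agrn stood at 0.20 ± 0.16, Col7a1 at -0.19 ± 0.24 and Lama5 at -0.084 ± 0.12.

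Among 20 genes of collagen folding, processing and crosslinking 12 stood above and 8 below 0 (median 0.039). At an unadjusted p under 0.05, 0 were higher and 2 lower, against 12.2% of all genes tested in either direction, so the count does not set the list apart. Plod1, a lysyl hydroxylase that prepares collagen for crosslinking, had 2.02, 1.85 and 1.81 in phenylbutazone and 2.15, 2.26 and 2.34 in vehicle (-0.36 ± 0.11, limma adjusted p = 0.323), with no overlap. Loxl3, a lysyl oxidase, had -4.71, -4.92 and -5.11 in phenylbutazone and -4.42, -4.51 and -4.25 in vehicle (-0.52 ± 0.14, limma adjusted p = 0.300), also with no overlap. Loxl4 ran the other way, at 1.39 ± 0.59, with phenylbutazone animal 3 at -2.96 and the other phenylbutazone animals at -4.54 and -5.43, against -5.89 to -5.55 in vehicle, and it was well above background on 2 phenylbutazone arrays and 1 vehicle array. Plod3 stood at -0.39 ± 0.19.

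Of 17 TGF-beta receptors, Smads and activators, 7 stood above and 10 below 0 (median -0.0042). At an unadjusted p under 0.05, 1 was higher and 0 lower, against 12.2% of all genes tested in either direction. Itgb6, the beta6 integrin chain that with alpha v releases active TGF-beta at epithelia, had 4.06, 4.22 and 4.51 in phenylbutazone and 3.63, 3.31 and 3.43 in vehicle. Its groups did not overlap, and the difference of 0.81 ± 0.15 (limma adjusted p = 0.219) was 0.84 on slide 2 alone and 0.79 without vehicle animal 3. Bambi (-0.14 ± 0.10), Smad6 (-0.25 ± 0.27) and Ltbp4 (0.11 ± 0.13) followed. Of 13 TGF-beta response genes 0 were higher and 0 lower at that threshold, against the same 12.2%, with a median of -0.0042. Ccn1, like Ccn2 a CCN family gene, had 0.0053, 0.37 and 0.49 in phenylbutazone and 1.50, 1.38 and 0.14 in vehicle (-0.72 ± 0.38), where vehicle animal 3 again lay with the phenylbutazone animals. Acta2, the smooth muscle actin of myofibroblasts, stood at -0.16 ± 0.11, Pmepa1 at 0.16 ± 0.15 and Id1 at -0.22 ± 0.23.

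Of 15 other small proteoglycans and elastic fibre genes 7 stood above and 8 below 0 (median -0.015), and 1 was higher and 1 lower at an unadjusted p under 0.05, against 12.2% of all genes tested in either direction. Mfap2, a microfibril protein, had -3.80, -3.63 and -3.70 in phenylbutazone and -2.84, -3.28 and -3.05 in vehicle (-0.65 ± 0.14, limma adjusted p = 0.252), and Mfap5, a related microfibril protein, stood at 0.57 ± 0.22 (limma adjusted p = 0.391). Groups did not overlap in 3 higher and 2 lower of the 15 genes, against 21.5% of all genes tested in either direction. Among them were Fmod (0.55 ± 0.26) and Aspn (-0.28 ± 0.12), both of the small leucine-rich family. Of 3 PDGF ligands 1 was higher and 0 lower at that threshold, beside the same 12.2%. Pdgfa, which activates PDGF receptor alpha, had 3.08, 3.08 and 3.24 in phenylbutazone and 2.72, 2.88 and 2.73 in vehicle (0.35 ± 0.10, limma adjusted p = 0.307). Pdgfb (-0.20 ± 0.31) and Pdgfc (-0.067 ± 0.11) overlapped.

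Markers of cells that make matrix or could travel with it were read the same way. Of 13 fibroblast and pericyte markers 7 stood above and 6 below 0, with a median of 0.0039. At an unadjusted p under 0.05, 3 were higher and 0 lower, against 12.2% of all genes tested in either direction, namely the pericyte genes Cspg4 (0.82 ± 0.25) and Abcc9 (0.60 ± 0.20) and Mfap5, while Thy1 stood at -0.39 ± 0.28. The mean deviation of that list lay between 0.0081 and 0.10 in phenylbutazone and between -0.079 and -0.023 in vehicle. That mean carries the large differences of the 3 named genes, and the median of the list stood near 0. Fap, a marker of activated fibroblasts, was not well above background on any array. Of 7 smooth muscle markers 4 stood above and 3 below 0, with a median of 0.043, or 0.14 without vehicle animal 3. At the same threshold and beside the same 12.2%, 0 were higher and 2 lower, Actg2 (-1.21 ± 0.25) and Smtn (-0.46 ± 0.10). Endothelial (median -0.13 over 9 genes), macrophage (0.023 over 10) and T and B cell markers (0.054 over 7) held 0, 0 and 0 genes that were higher and 0, 1 and 0 that were lower, the macrophage gene being C1qc (-0.32 ± 0.11). The 9 erythrocyte markers all stood above 0, with a median of 0.46 and a mean deviation of -0.21 to 0.50 in phenylbutazone and -0.43 to 0.035 in vehicle. Of 10 tubular injury markers 7 stood above and 3 below 0 (median 0.54), and 6 were higher and 0 lower at an unadjusted p under 0.05, against 12.2% of all genes tested in either direction, with a mean deviation of 0.093 to 0.67 in phenylbutazone and -0.37 to -0.27 in vehicle, among them Spp1 (2.02 ± 0.36) and Timp1 (0.47 ± 0.11). That deviation did not overlap between the groups, whereas the mean deviation of the 25 matrix genes did. The matrix means were -0.21, 0.087 and 0.11 in phenylbutazone and 0.17, -0.075 and -0.071 in vehicle. Both lists were chosen with earlier results of these data known, so the contrast is a description only. How often the mean of any list separates the groups was not examined. The 9 loop, distal and collecting duct markers had a mean deviation of -0.35 in vehicle animal 3 and 0.014 to 0.22 in the other animals. The 6 medulla and papilla markers stood at -0.31 in vehicle animal 3 and at -0.13 to 0.16 in the others. The 11 proximal tubule markers stood at 0.076 there, against -0.071 to 0.014. The part of erythrocyte, injury and nephron segment markers in the matrix values was not tested.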

How the data were processed

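Renal cortex RNA of 3 phenylbutazone and 3 vehicle rats was read on one-colour Agilent arrays, 1 for each animal, which the series design calls biological replicates. Agilent Feature Extraction 10.7 made the scanner tables, per the submitters' processing notes. Per the file headers, the deposited processed intensity of each spot was background-subtracted and detrended by the authors' software, with no scaling across arrays. The deposited value table holds a ratio, the processed intensity over the array's 75th percentile: its values divided by that ratio recomputed lay between 0.9966 and 0.9993 on all arrays, so scale, centring and direction are settled, and its column medians were 0.105 to 0.11. The probe layout names build rn4, and no rn4 coordinates are given.

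Control spots (1439 of 62976) and 40 probes with an outlier flag were left out; no spot was saturated. Between 65.2% and 68.4% of probes were well above background on an array. Intensities were taken to log2 minus the array's 75th percentile, and 41006 probes (66.6%) well above background on at least 3 arrays were kept. Accessions without version matched RefSeq genes (GRCr8, names only) for 28206 of 61537 probes (45.8%). A gene was its probe of highest mean level. Differences were fitted across all genes in R 4.3.3 by limma 3.58.1 (lmFit, then eBayes; two-sided), with Benjamini-Hochberg adjustment and a threshold of 0.05. The fit was tested on simulated data with independent noise and no slide effect, unlike these arrays. At the adjusted threshold it recovered 55% of 100 genes changed 2-fold and 96% of 100 changed 4-fold, with 16 false calls. Named genes were all 33 listed genes, up to 4 genes of smallest p per related list, and fixed markers. The listed genes, the related lists and the tests were chosen with earlier results of these data known.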

Additional observations from a re-analysis of the deposited data

How the results depend on the processing

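In 18 alternatives 0 of the 25 matrix genes passed the adjusted threshold, and their median difference stayed between -0.046 and 0.13, both reached by leaving out a phenylbutazone replicate. The count over all genes, 0 as reported with 3657 at an unadjusted p under 0.05 (limma), was 1 with quantile normalization, 2 with normexp, 8 with an intensity trend and 1 with slide as a random block. Leaving out a replicate gave 0 to 814 genes, the highest when vehicle replicate 3 was left out, which leaves slide 1 all vehicle and slide 2 all phenylbutazone. The cause was not tested. Of 450 recomputed differences of single matrix genes 416 moved by less than 1 replicate SD. That count includes settings that could not move a difference, so it overstates stability. An intensity trend changes only the variances, and the replicate number is a balanced block. The stricter and the absent filter on dim probes kept the same probe of each tested matrix gene. Slide as a fixed block and slide 2 alone give the same difference. With that limit, the sign held in every alternative for 9 genes. They were Col1a1, Tgfb1, Tgfb3, Loxl1, Ccn2, Thbs2, Sparc, Fbn1 and Pdgfra. It changed in at least 1 alternative for the other 16. By role, slide as a fixed block moved the fibrillar median to 0.079, the basement membrane median to 0.59 and the proteoglycan median to 0.39, without phenylbutazone replicate 1 the matricellular median was 0.26 and without vehicle replicate 2 -0.15, and averaging all probes moved the elastic fibre median to -0.13; vehicle array 3 is the only vehicle array in the slide setting. With the replicate number as a block 0 genes and 0 matrix genes passed. The median was 0.030, the same as in the main fit by design, because each number holds 1 array of each group. Same-numbered animals did not deviate together (r = -0.0301, 0.0114 and -0.0737 for numbers 1, 2 and 3). With 3 arrays per group and the vehicle arrays on 2 slides, these values cannot tell whether the numbers pair the samples. Dim probes, such as those of Postn and Lum, limit what can be said of low transcripts.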
